A study of Mus musculus with 8 samples.

Results

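The set described here comprises 42 mouse genes that encode the transporters and enzymes of glycolysis, of pyruvate and lactate handling, and of the pentose phosphate pathway. They were chosen by gene symbol, and all 42 were found among the 55414 Ensembl gene rows of the count table. All 42 also passed the filter on low counts, so they are 42 of the 14655 genes tested. The libraries were made from Kupffer cells, the macrophages resident in the liver sinusoids, which were sorted by FACS. The mice were WT C57BL/6J, and their livers were taken 2 h after CLP (4 libraries) or after Sham surgery (4 libraries). CLP is caecal ligation and puncture, an abdominal operation that releases gut bacteria and is used as a mouse model of sepsis, and Sham animals had the control operation. No age, sex or antibody gate is given in the sources used here, and nothing says whether a library came from 1 mouse or from several, so p-values measure the spread between libraries.

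Glycolysis splits glucose into pyruvate in the cytosol. Its rate is set mainly at glucose entry, at hexokinase and at phosphofructokinase, and fructose 2,6-bisphosphate made by the PFKFB enzymes is a strong activator of the last of these. Pyruvate is then either reduced to lactate and exported or taken into mitochondria and oxidised by the pyruvate dehydrogenase complex, which the PDK kinases switch off. The pentose phosphate pathway branches off at glucose 6-phosphate, makes NADPH in its oxidative arm and ribose 5-phosphate in its non-oxidative arm. Macrophages stimulated with bacterial products are known for raising glycolysis, and several glycolytic genes are textbook targets of the hypoxia-inducible factors (HIF), which bind the hypoxia response element.

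Total counts per library ranged from 23311897 to 28724875. Levels are given as CPM (counts scaled to a common library size) with factors from the trimmed mean of M-values (TMM), listed in the order of replicates 1 to 4, and means carry the sample SD with n = 4. Log2 changes are CLP over Sham ± SE. The Kupffer cell markers were high in every library, with all 9 detected and a summed level of 31055 to 39793 CPM in CLP and 24251 to 31497 CPM in Sham libraries. Markers of other cells were present as well. The 10 neutrophil markers summed to 199 to 553 CPM in CLP and 82.4 to 119.8 CPM in Sham libraries (exact permutation p = 0.0286, the smallest that 4 against 4 allows, and 0.0571 adjusted over 10 marker lists). Ly6g and Camp were at 0 in Sham libraries. Csf3r held most of the sum and changed less than the other markers. Its log2 change was 1.31 ± 0.22, against 5.55 ± 0.60 for S100a9 and a median of 4.20 over the 7 neutrophil markers tested. The 7 platelet markers summed to 119 to 193 CPM in CLP and 15.2 to 28.0 CPM in Sham libraries (exact permutation p = 0.0286, adjusted 0.0571). Gp1bb was at 0 in both groups, and Pf4 held most of the sum in both. B cell markers summed to 23.5 ± 5.05 CPM in CLP and 11.5 ± 2.31 CPM in Sham libraries, and T and NK cell markers to 1.28 ± 0.601 CPM in CLP and 0.510 ± 0.189 CPM in Sham libraries, both at the same exact p. The stellate cell markers had that p too and summed to 48.6 ± 9.00 CPM in CLP and 36.2 ± 3.31 CPM in Sham libraries. In the B cell list 5 markers were higher by edgeR, but Cd79b, the largest in Sham libraries, was lower. It had 4.56 ± 1.76 CPM in CLP and 8.57 ± 2.26 CPM in Sham libraries (log2 change -0.91 ± 0.29, adjusted p = 0.0203 by edgeR). Erythroid markers summed to 11.0 ± 2.92 CPM in CLP and 5.47 ± 2.64 CPM in Sham libraries (exact permutation p = 0.0571). The 10 hepatocyte markers summed to 3099 ± 413 CPM in CLP and 2559.7 ± 341 CPM in Sham libraries (exact permutation p = 0.114). Sinusoidal endothelial markers summed to 605 ± 9.98 CPM in CLP and 595 ± 49.3 CPM in Sham libraries (exact permutation p = 0.886). Monocyte markers summed to 288 ± 60.7 CPM in CLP and 229 ± 50.2 CPM in Sham libraries (exact permutation p = 0.229). The part of these cells in the values below was not tested, and in bulk libraries a change in cell numbers and a change in RNA per cell cannot be told apart. The first principal component (76.7% of variance) separated the surgeries, and the second (9.99%) set CLP replicate 1 off from CLP replicates 2 to 4.

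Of the 42 genes, 19 were higher and 7 were lower in CLP than in Sham libraries at an edgeR adjusted p under 0.05, and 16 did not pass. Surgery moved much of the transcriptome, and the same test called 54.3% of the 14655 genes tested, with 24.9% higher and 29.5% lower. The counts of higher and lower genes in every list below are to be read against these shares. The share of the set that was higher was 45.2% and the share that was lower 16.7%, and the median log2 fold change was 0.36 for the set and -0.040 for all genes tested. In 26 of the 42 genes the 4 CLP and the 4 Sham libraries did not overlap, against 49.5% of all genes tested. Of the 19 rises, 16 lay in the stretch from glucose entry to lactate export, where 16 of 26 genes were higher and 3 lower. Among the 9 genes of pyruvate entry into mitochondria 2 were higher and 2 lower, and among the 7 pentose phosphate genes 1 was higher and 2 were lower. In place of 7, 4 genes of the set were lower without Sham replicate 4.

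The scaling sets where the line between higher and lower falls. With libraries scaled by total counts in place of TMM, 17.1% of all calls were upward, against 45.8% with TMM, and the median over all genes tested was -0.60, against -0.040. On that scale 13 genes of the set were higher and 19 lower, with a median of -0.19. Every log2 change below is on the TMM scale unless stated otherwise. For genes of the set, a rise that turns or loses its call under total counts is named as such. Genes outside the set were not looked at singly under total counts, so small rises among them may depend on the scaling.

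**Figure D1:**
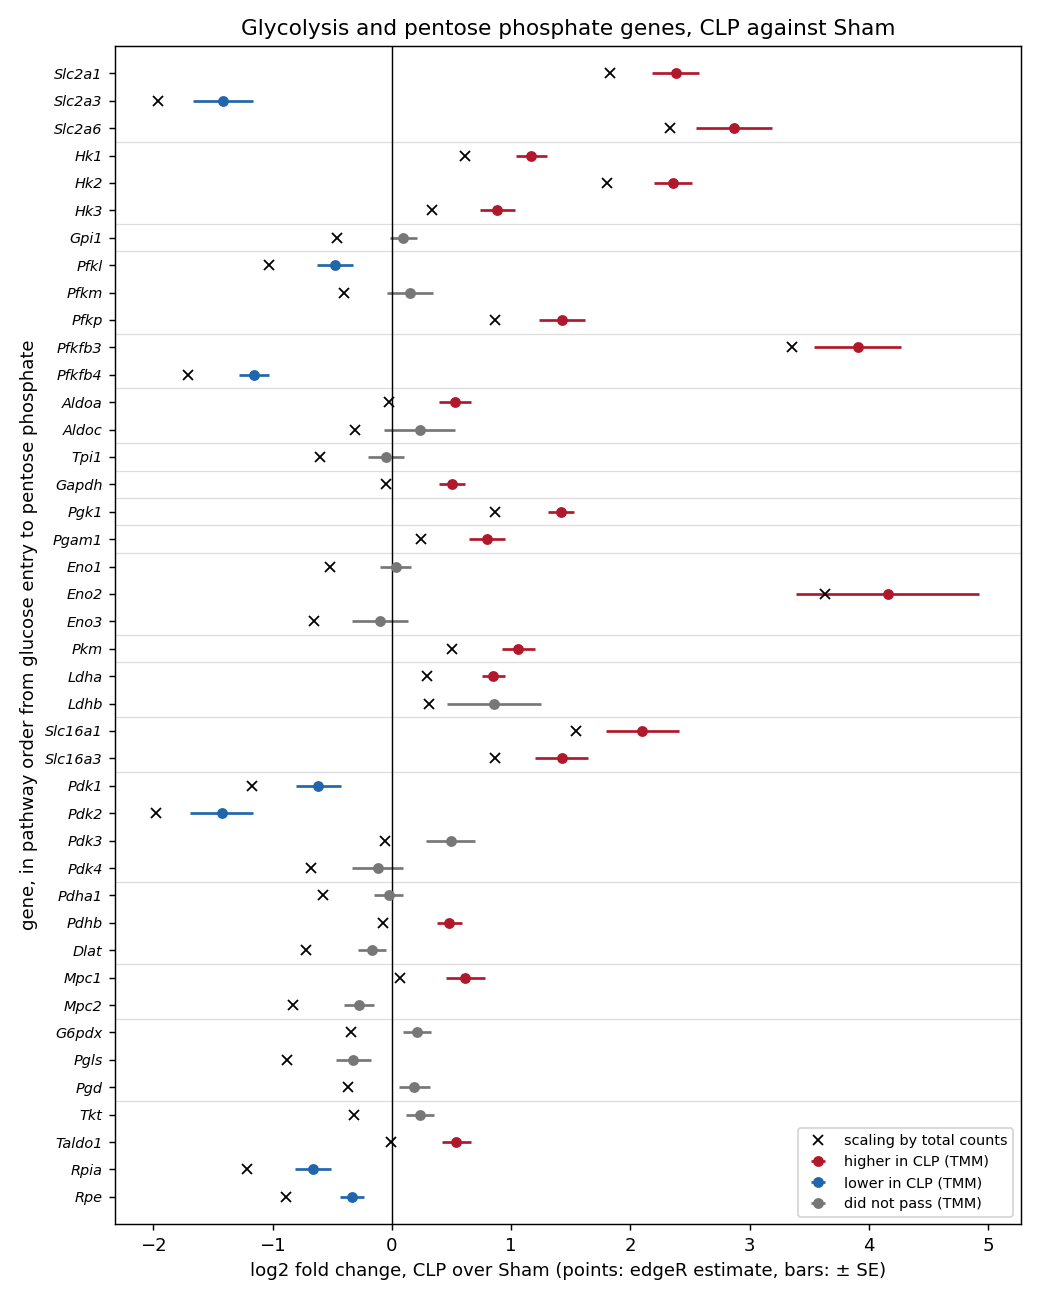
Log2 fold change of the 42 genes, CLP over Sham, in pathway order from top to bottom; points with bars are edgeR estimates ± SE on the TMM scale, coloured by call, and crosses are the estimates with scaling by total counts. The large rises are Pfkfb3 at 3.90, Slc2a6 at 2.87, Slc2a1 at 2.38, Hk2 at 2.36 and the low-count Eno2 at 4.16, and the crosses of Aldoa, Gapdh, Pdhb and Taldo1 lie on the other side of 0.

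Glucose enters cells through the GLUT carriers, and all 3 carriers of the set changed. Slc2a1, the broadly expressed carrier GLUT1, had 175, 221, 132 and 136 CPM in the CLP libraries, against 40.7, 32.0, 28.6 and 26.4 CPM in the Sham libraries. Each CLP library lay above each Sham library, and the mean was 5.20-fold higher in CLP (log2 change 2.38 ± 0.20, adjusted p = 7.89e-06 by edgeR). Slc2a6, the carrier GLUT6 found on lysosomal membranes of macrophages, had 198, 274, 309 and 281 CPM in the CLP libraries, against 63.9, 34.2, 26.1 and 21.4 CPM in the Sham libraries. Again the groups did not overlap, although Sham replicate 1 was higher than the other Sham libraries (log2 change 2.87 ± 0.32, adjusted p = 4.22e-05 by edgeR). Slc2a3, the high-affinity carrier GLUT3, moved the other way. It had 10.9, 10.2, 11.0 and 8.53 CPM in the CLP libraries, against 20.4, 37.0, 16.1 and 34.7 CPM in the Sham libraries. All 4 CLP libraries lay below all Sham libraries, and the Sham libraries themselves spread over a wide range (log2 change -1.41 ± 0.25, adjusted p = 8.81e-04 by edgeR).

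Levels of different genes were compared per length, as CPM per kilobase of exon. The 3 carriers together reached 131 ± 15.4 in CLP and 24.2 ± 7.36 in Sham libraries, a ratio of 5.44. Within that sum Slc2a6 held 62.8% ± 8.26 in CLP and 44.96% ± 9.53 in Sham libraries, Slc2a1 held 36.1% ± 8.19 in CLP and 38.5% ± 4.38 in Sham libraries, and Slc2a3 held 1.08% ± 0.188 in CLP and 16.5% ± 7.78 in Sham libraries. The Slc2a3 share in CLP libraries did not overlap with that in Sham libraries. Among carriers outside the set, Slc16a6, a monocarboxylate transporter family member, was higher in CLP (89.9 ± 9.88 CPM in CLP and 37.5 ± 5.03 CPM in Sham libraries, log2 change 1.26 ± 0.13, adjusted p = 2.04e-05 by edgeR), and Slc2a8, an intracellular glucose carrier, was lower (6.84 ± 1.88 CPM in CLP and 10.2 ± 0.923 CPM in Sham libraries, log2 change -0.57 ± 0.19, adjusted p = 0.0255 by edgeR). Slc2a2, the hepatocyte carrier GLUT2, did not pass (11.7 ± 1.83 CPM in CLP and 8.17 ± 2.28 CPM in Sham libraries, log2 change 0.52 ± 0.21, adjusted p = 0.0610 by edgeR). Of the 7 such transporters tested, 2 were higher and 1 was lower.

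Hexokinases trap glucose in the cell as glucose 6-phosphate, and all 3 isoforms of the set rose. Hk2, the inducible isoform that can bind mitochondria, had 829, 1295, 1114 and 1180.1 CPM in the CLP libraries, against 213, 247, 196 and 207 CPM in the Sham libraries. The lowest CLP library, replicate 1, was still far above the highest Sham library, replicate 2, and the mean was 5.12-fold higher in CLP (log2 change 2.36 ± 0.16, adjusted p = 3.22e-06 by edgeR). Hk1, the widely expressed isoform, had 104, 144, 119.6 and 152 CPM in the CLP libraries, against 61.8, 56.4, 55.9 and 57.5 CPM in the Sham libraries. Its groups also did not overlap (log2 change 1.17 ± 0.13, adjusted p = 3.89e-05 by edgeR). Hk3, the isoform typical of myeloid cells, had 438, 537, 515 and 688 CPM in the CLP libraries, against 307, 312, 262 and 299 CPM in the Sham libraries. The rise of Hk3 was the smallest of the 3, with no overlap (log2 change 0.89 ± 0.15, adjusted p = 5.03e-04 by edgeR).

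The leading isoform differed between the groups. Per length, the 3 hexokinases summed to 348 ± 58.0 in CLP and 123 ± 9.30 in Sham libraries, a ratio of 2.83. Hk2 held 53.1% ± 3.55 in CLP and 29.3% ± 1.39 in Sham libraries. Hk3 held 42.5% ± 3.499 in CLP and 65.1% ± 1.19 in Sham libraries. Neither share overlapped between the groups, so that Hk3 led in Sham libraries and Hk2 in CLP libraries, and Hk1 stayed minor at 4.38% in CLP and 5.54% in Sham libraries. With lengths of the longest coding transcripts in place of all exons, Hk2 held 50.1% in CLP and 27.1% in Sham libraries. Ranked per length among the 42 genes, Hk2 stood at place 1 in CLP and place 9 in Sham libraries over all exons, and at place 5 in CLP and place 13 in Sham libraries over the longest coding transcripts.

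The next reaction is the interconversion of glucose 6-phosphate and fructose 6-phosphate. Its enzyme gene, Gpi1, did not pass (168 ± 19.7 CPM in CLP and 157 ± 10.7 CPM in Sham libraries, log2 change 0.094 ± 0.11, adjusted p = 0.506 by edgeR). The antisense gene Gm26762 overlaps 11.5% of its exon bases, and the strand setting of the count is not given in the sources used here.

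Phosphofructokinase-1 makes the committed step, and its 3 isoforms went different ways. Pfkp, the platelet type, had 75.2, 132, 111 and 151 CPM in the CLP libraries, against 43.4, 44.1, 48.6 and 38.4 CPM in the Sham libraries. Its CLP libraries all lay above the Sham libraries, with replicate 1 the lowest of them (log2 change 1.42 ± 0.19, adjusted p = 1.31e-04 by edgeR). Pfkl, the liver type, had 33.8, 24.2, 32.7 and 21.7 CPM in the CLP libraries, against 38.2, 43.1, 35.3 and 39.96 CPM in the Sham libraries. It was lower in CLP with no overlap, by less than 1 log2 unit (log2 change -0.48 ± 0.15, adjusted p = 0.0215 by edgeR), and this call was lost without CLP replicate 2, CLP replicate 4, Sham replicate 2 or Sham replicate 4 (adjusted p from 1.96e-04 to 0.0719 over all alternatives). Pfkm, the muscle type, was low in both groups and did not pass (7.20 ± 1.11 CPM in CLP and 6.46 ± 1.42 CPM in Sham libraries, log2 change 0.15 ± 0.19, adjusted p = 0.518 by edgeR), and Gm26513 overlaps 10.2% of its exon bases on the same strand. Per length, Pfkp held 57.0% ± 10.1 in CLP and 29.5% ± 3.73 in Sham libraries of the phosphofructokinase-1 sum, and Pfkl held 28.6% ± 9.17 in CLP and 53.0% ± 2.68 in Sham libraries. The sum itself was 15.1 ± 1.67 in CLP and 11.1 ± 0.471 in Sham libraries, a ratio of 1.37. With lengths of the longest coding transcripts the Pfkp share was 72.7% in CLP and 45.2% in Sham libraries, and the Pfkl share 20.7% in CLP and 45.1% in Sham libraries. The lead of Pfkl over Pfkp in Sham libraries therefore depends on the length used. The summed platelet markers in CLP replicates 1 to 4 were 187, 183, 119 and 193 CPM, most of it Pf4 (173, 164, 93.8 and 161 CPM). Pf4 ran in a different order from Pfkp. Itga2b (4.16, 5.76, 6.09 and 8.14 CPM), Ppbp (8.16, 11.4, 15.2 and 19.7 CPM) and the low-count Treml1 were lowest in replicate 1 and highest in replicate 4, as was Pfkp. Gp9 and Gp5, also at low counts, were not. From CLP replicate 2 to CLP replicate 3, Itga2b, Ppbp and Treml1 rose whereas Pfkp fell. Other genes of the set, such as Hk1, Hk3, Pgk1 and Pgam1, were also lowest in CLP replicate 1 and highest in CLP replicate 4. The orders, and Itga2b, Treml1, Gp9 and Gp5, were picked out after the values were seen. The part of platelets in the Pfkp values was not tested. The exons of Pfkp overlap Pitrm1 on the opposite strand over 5.58% of their bases.

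The enzymes that make the activator fructose 2,6-bisphosphate went opposite ways. Pfkfb3, the isoform with high kinase over phosphatase activity, had 262, 643, 1074 and 679 CPM in the CLP libraries, against 51.6, 45.1, 39.4 and 41.6 CPM in the Sham libraries. All CLP libraries lay far above the Sham libraries, and they spread widely among themselves, with replicate 1 the lowest and replicate 3 the highest. The mean was 15.0-fold higher in CLP (log2 change 3.90 ± 0.36, adjusted p = 1.48e-05 by edgeR). Pfkfb4, its paralog, had 11.0, 9.74, 8.29 and 8.97 CPM in the CLP libraries, against 20.4, 20.6, 22.8 and 20.9 CPM in the Sham libraries. It was lower in every CLP library than in any Sham library (log2 change -1.15 ± 0.12, adjusted p = 3.13e-05 by edgeR). Per length, Pfkfb3 held 97.1% ± 2.19 in CLP and 57.4% ± 3.90 in Sham libraries of the sum of the pair. That sum was 89.8 ± 43.7 in CLP and 10.2 ± 0.558 in Sham libraries, a ratio of 8.79. Of the related genes outside the set, Pfkfb2 was lower in CLP (6.64 ± 1.23 CPM in CLP and 12.3 ± 1.51 CPM in Sham libraries, log2 change -0.89 ± 0.17, adjusted p = 0.00110 by edgeR), as was Tigar, a phosphatase that removes fructose 2,6-bisphosphate (4.61 ± 0.775 CPM in CLP and 9.25 ± 0.356 CPM in Sham libraries, log2 change -1.01 ± 0.16, adjusted p = 4.10e-04 by edgeR); both were picked out after their values were seen.

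**Figure D2:**
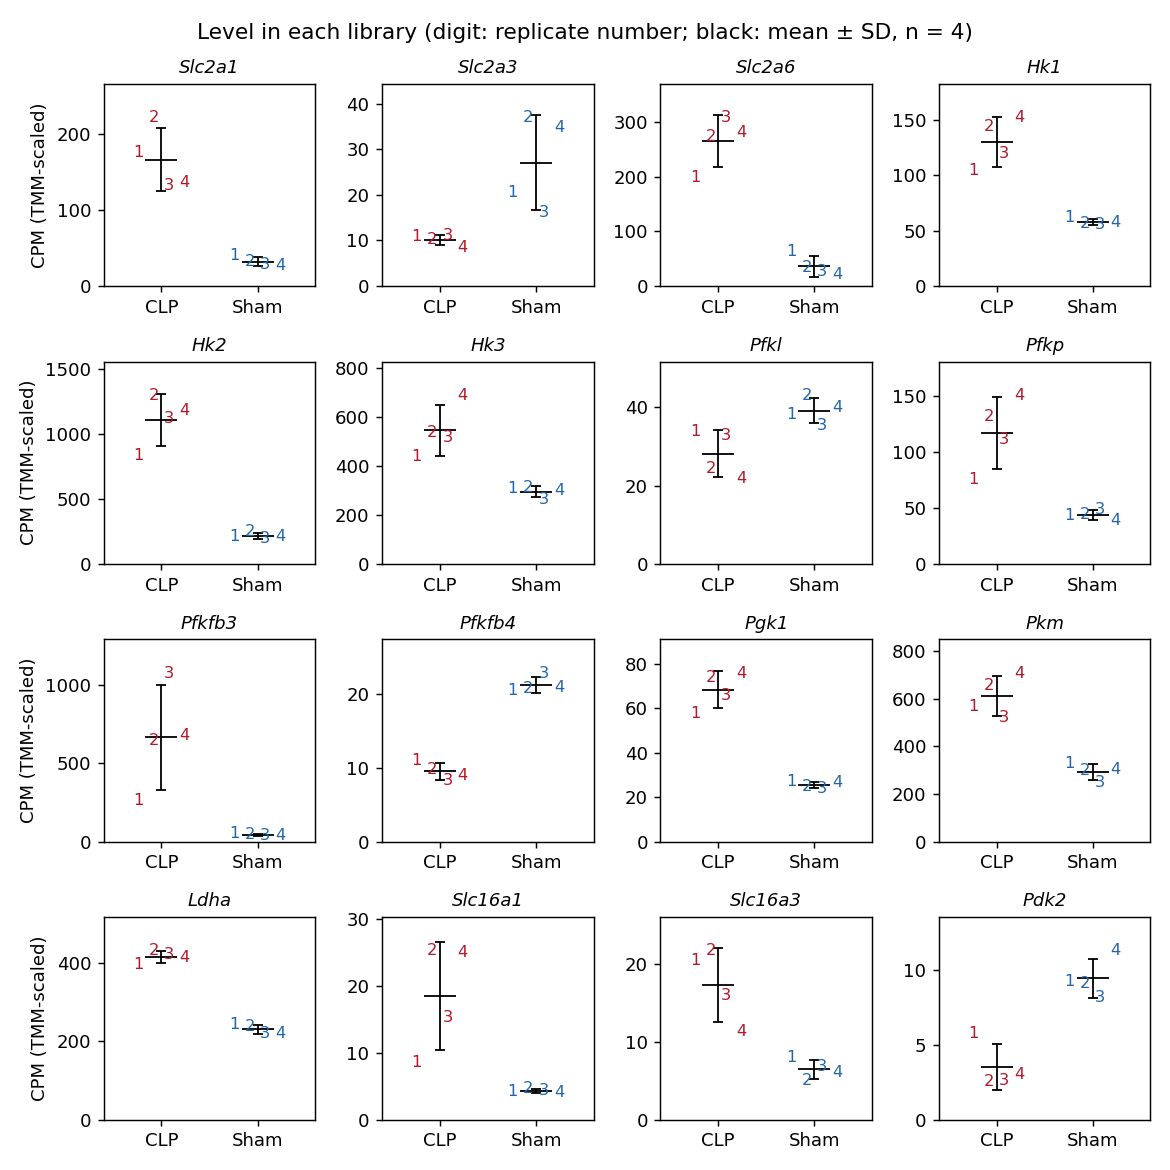
TMM-scaled CPM of 16 genes named above the panels, in each of the 8 libraries, CLP left and Sham right, each point drawn as its replicate number, with the mean ± SD (n = 4) in black; every panel starts at 0. Replicate 1 is the lowest CLP library for Hk2, at 829 CPM, and for Pfkfb3, at 262 CPM, and still lies above all Sham libraries.

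**Figure D3:**
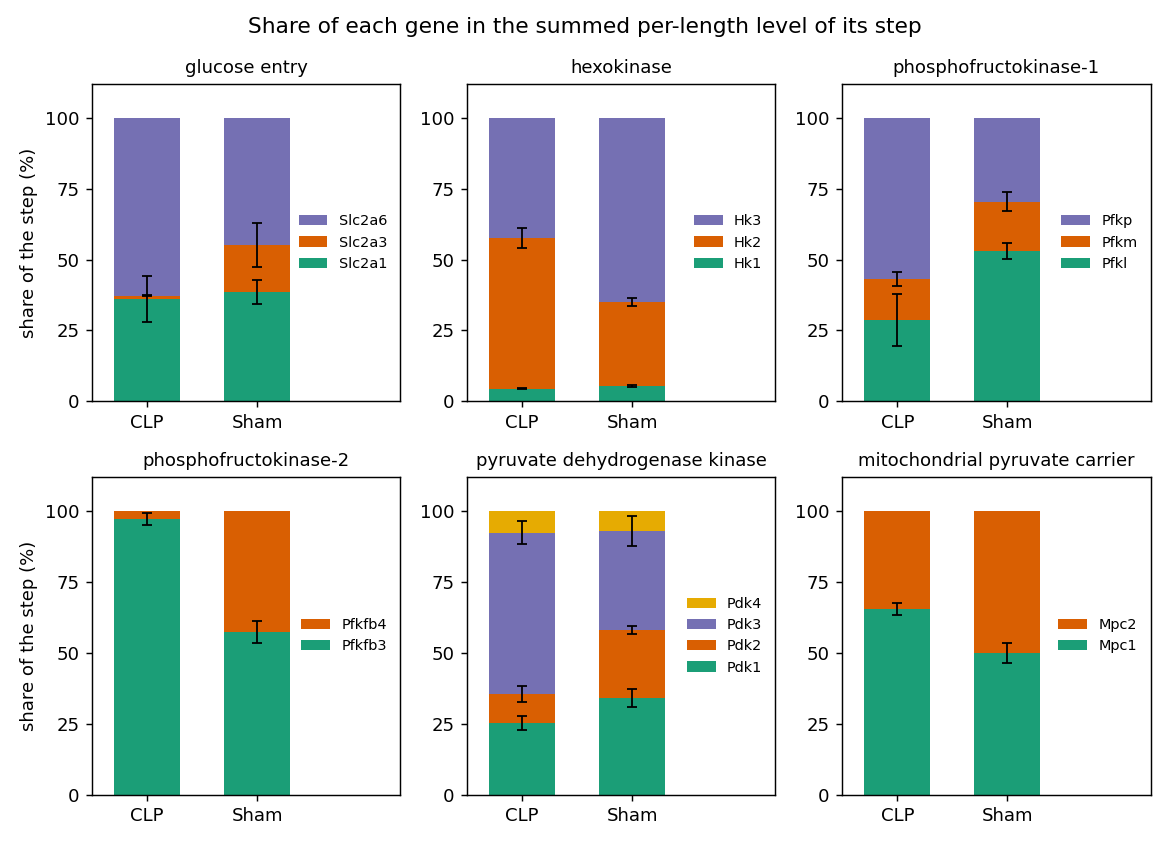
Share (%) of each gene in the summed per-length level of its step, CLP left and Sham right; stacked bars are means of 4 libraries and error bars are the SD of each share. Hk2 holds 53.1% in CLP against 29.3% in Sham, Pfkp 57.0% against 29.5%, and Pfkfb3 97.1% against 57.4%.

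The 250 bases upstream of the annotated starts were searched for ACGTG on both strands (ACGTG or CACGT), the core of the hypoxia response element; a CACGTG counts as a pair of overlapping matches. A promoter window from RefSeq was at hand for 41 of the 42 genes, all but Slc2a3. The letters were in a window of 12 of the 19 higher genes (63.2%), 1 of 6 lower genes (16.7%) and 2 of 16 genes that did not pass (12.5%). Among all genes tested they were in 27.0% of higher, 24.8% of lower and 22.9% of other genes with a window. Over all 27025 genes with a window, tested or not, the share was 18.5%. Counted by window, it was 53.8% for higher genes of the set, 12.5% for lower ones and 13% for those that did not pass. By the same count it was 22.7% for all higher genes tested, 21.2% for all genes tested and 16.6% over all 32851 windows. The search was made with the calls known, and a match is a description of the sequence and not a bound site. The windows shown are of genes with large rises (Hk2, Pfkfb3, Pgk1), of Ldha, and of Pfkfb4, the falling paralog of Pfkfb3. Ldha has the most matches in the set, in the first of its 2 windows and none in the other. Pfkfb4 has no match to the searched letters. The windows were picked after the values were seen. Other genes go against that contrast, since Slc2a6, Eno2, Pfkp and Hk1 rose with no match in their windows, and Pdk2 fell with a match. As a check, a short stretch just after each start was looked for in the GENCODE transcripts of the gene. It was found for every window shown except that of Ldha. For Ldha it was found only at the start whose window has no match. The windows are on GRCm38.p6, whereas the counts were made on mm39, and lie at chr6:82774455-82774704 (minus strand) for Hk2, chr2:11553930-11554179 and chr2:11502091-11502340 (minus strand) for the 2 Pfkfb3 starts, chr9:108991652-108991901 (plus strand) for Pfkfb4, chrX:106186850-106187099 (plus strand) for Pgk1 and chr7:46845554-46845803 (plus strand) for Ldha. Each is written from 5′ to 3′ on the strand of its gene, with the searched letters in capitals:
Hk2: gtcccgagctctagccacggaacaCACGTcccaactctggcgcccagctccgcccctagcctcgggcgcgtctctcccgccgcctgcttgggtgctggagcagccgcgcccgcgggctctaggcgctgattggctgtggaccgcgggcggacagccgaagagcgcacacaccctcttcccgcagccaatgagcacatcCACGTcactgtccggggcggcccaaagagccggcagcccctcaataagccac
Pfkfb3 first start: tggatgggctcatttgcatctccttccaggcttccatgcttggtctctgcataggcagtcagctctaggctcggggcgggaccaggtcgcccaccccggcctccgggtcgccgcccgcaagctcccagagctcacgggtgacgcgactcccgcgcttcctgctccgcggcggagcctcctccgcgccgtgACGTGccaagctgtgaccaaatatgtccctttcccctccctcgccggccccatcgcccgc
Pfkfb3 second start: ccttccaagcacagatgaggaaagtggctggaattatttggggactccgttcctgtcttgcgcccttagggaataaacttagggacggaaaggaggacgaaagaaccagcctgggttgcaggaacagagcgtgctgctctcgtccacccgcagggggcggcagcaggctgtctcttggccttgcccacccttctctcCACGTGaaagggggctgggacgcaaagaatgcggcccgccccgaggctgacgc
Pfkfb4: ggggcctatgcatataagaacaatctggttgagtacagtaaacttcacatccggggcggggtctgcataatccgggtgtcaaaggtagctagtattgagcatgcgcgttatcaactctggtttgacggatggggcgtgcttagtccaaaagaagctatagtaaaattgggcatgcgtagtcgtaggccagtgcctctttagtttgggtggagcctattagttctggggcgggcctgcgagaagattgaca
Pgk1: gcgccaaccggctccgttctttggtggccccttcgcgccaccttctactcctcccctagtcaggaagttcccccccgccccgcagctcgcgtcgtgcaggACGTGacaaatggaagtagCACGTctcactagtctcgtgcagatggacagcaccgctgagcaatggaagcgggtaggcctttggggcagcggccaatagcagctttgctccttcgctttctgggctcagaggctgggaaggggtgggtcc
Ldha: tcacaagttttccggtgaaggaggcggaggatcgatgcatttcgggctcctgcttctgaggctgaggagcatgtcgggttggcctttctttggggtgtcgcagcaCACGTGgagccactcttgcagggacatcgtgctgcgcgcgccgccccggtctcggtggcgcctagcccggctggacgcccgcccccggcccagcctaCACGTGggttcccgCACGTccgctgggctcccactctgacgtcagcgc

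Below phosphofructokinase the sugar is split and oxidised, and the changes at aldolase and GAPDH were smaller. Aldoa, the main aldolase, had 566, 462, 422 and 438 CPM in the CLP libraries, against 372, 344, 291 and 302 CPM in the Sham libraries. It was 1.44-fold higher in CLP with no overlap (log2 change 0.53 ± 0.13, adjusted p = 0.00663 by edgeR), and under total-count scaling the estimate was -0.022. Aldoc was low in both groups and did not pass (2.81 ± 0.946 CPM in CLP and 2.40 ± 0.728 CPM in Sham libraries, log2 change 0.23 ± 0.30, adjusted p = 0.528 by edgeR), so that Aldoa held 99.5% in CLP and 99.4% in Sham libraries of the per-length sum. Tpi1, which interconverts the triose phosphates, did not pass (69.9 ± 16.0 CPM in CLP and 72.3 ± 5.49 CPM in Sham libraries, log2 change -0.049 ± 0.15, adjusted p = 0.800 by edgeR). Gapdh, which makes NADH and is often used as a reference gene, had 279, 255, 215 and 238 CPM in the CLP libraries, against 179.9, 180.1, 168 and 169.8 CPM in the Sham libraries. It was 1.41-fold higher in CLP with no overlap (log2 change 0.50 ± 0.11, adjusted p = 0.00286 by edgeR), but -0.053 on the log2 scale under total-count scaling. Near-identical sequence to Gapdh is found in 86 other annotated genes, whose counts came to 5.29% of those of Gapdh.

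Pgk1 and Pgam1 carry the phosphoglycerates on towards pyruvate. Pgk1, which makes the first ATP of the pathway, had 58.0, 74.2, 65.7 and 75.9 CPM in the CLP libraries, against 27.0, 24.96, 24.0 and 26.5 CPM in the Sham libraries. The CLP libraries all lay above the Sham libraries, 2.67-fold on average (log2 change 1.42 ± 0.11, adjusted p = 6.01e-06 by edgeR). Pgam1, phosphoglycerate mutase, had 12.2, 15.2, 14.1 and 17.3 CPM in the CLP libraries, against 9.26, 9.23, 7.31 and 8.005 CPM in the Sham libraries. It was higher in CLP with no overlap (log2 change 0.80 ± 0.15, adjusted p = 0.00105 by edgeR), and under total-count scaling the estimate of 0.25 did not pass.

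Of the 3 enolases, the most abundant one did not pass the test. Eno1, the ubiquitous enolase, did not pass (128 ± 22.2 CPM in CLP and 125 ± 6.96 CPM in Sham libraries, log2 change 0.031 ± 0.13, adjusted p = 0.855 by edgeR), nor did Eno3, the muscle enolase (4.94 ± 1.69 CPM in CLP and 5.31 ± 0.397 CPM in Sham libraries, log2 change -0.10 ± 0.23, adjusted p = 0.731 by edgeR). Eno2, known as the neuronal enolase, was close to absent in Sham libraries. It had 1.17, 2.46, 2.703 and 5.07 CPM in the CLP libraries, against 0.458, 0.122, 0 and 0.0306 CPM in the Sham libraries. The Sham values rest on 15, 4, 0 and 1 counts, and the count of 0 in Sham replicate 3 allows a level of up to 0.101 CPM (3 counts, counting error only). The fitted difference passed (log2 change 4.16 ± 0.77, adjusted p = 0.00105 by edgeR), but its size depends on Sham replicate 1 and was 5.66 without it. Per length Eno2 held 2.40% in CLP and 0.120% in Sham libraries of the enolase sum, which was 27.2 ± 4.54 in CLP and 26.3 ± 1.31 in Sham libraries, a ratio of 1.03.

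Pyruvate kinase and lactate dehydrogenase close the cytosolic pathway, and their main genes rose. Pkm, whose M1 and M2 splice forms cannot be told apart in gene counts, had 565, 656, 521 and 707 CPM in the CLP libraries, against 328, 297, 249 and 301 CPM in the Sham libraries. It was 2.08-fold higher in CLP with no overlap (log2 change 1.06 ± 0.14, adjusted p = 1.04e-04 by edgeR); Gm49759 overlaps 15.3% of its exon bases on the same strand. Ldha, the subunit that favours lactate formation, had 396, 431, 421 and 414 CPM in the CLP libraries, against 244, 238, 219.8 and 220.3 CPM in the Sham libraries. The libraries of each group lay close together, and the groups did not overlap (log2 change 0.85 ± 0.099, adjusted p = 5.15e-05 by edgeR). Ldhb was under 1 CPM in every library and did not pass (0.720 ± 0.280 CPM in CLP and 0.396 ± 0.144 CPM in Sham libraries, log2 change 0.86 ± 0.39, adjusted p = 0.0872 by edgeR), although it passed without CLP replicate 2 or without Sham replicate 4. The counts of the near-identical Gm5514 came to 55.8% of those of Ldhb, which makes its values uncertain. Per length, Ldha held 99.6% in CLP and 99.6% in Sham libraries of the lactate dehydrogenase sum. The liver-type pyruvate kinase Pklr, outside the set, did not pass (10.7 ± 2.40 CPM in CLP and 11.6 ± 3.25 CPM in Sham libraries, log2 change -0.12 ± 0.21, adjusted p = 0.667 by edgeR). Pklr was picked out after its values were seen.

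Lactate leaves cells with a proton through the MCT carriers, and both carriers of the set rose. Slc16a1, the carrier MCT1, had 8.61, 25.2, 15.3 and 24.97 CPM in the CLP libraries, against 4.16, 4.72, 4.29 and 4.06 CPM in the Sham libraries. It was 4.29-fold higher in CLP, with CLP replicate 1 the lowest CLP library and still above all Sham libraries (log2 change 2.10 ± 0.30, adjusted p = 2.15e-04 by edgeR). Slc16a3, the carrier MCT4 typical of glycolytic cells, had 20.4, 21.6, 15.9 and 11.3 CPM in the CLP libraries, against 7.91, 5.06, 6.81 and 5.99 CPM in the Sham libraries. Its CLP libraries all lay above the Sham libraries, and here replicate 4 was the lowest of them (log2 change 1.42 ± 0.22, adjusted p = 3.28e-04 by edgeR). Per length the pair summed to 7.43 ± 1.76 in CLP and 2.18 ± 0.192 in Sham libraries, a ratio of 3.40, and Slc16a1 held 54.6% ± 16.1 in CLP and 44.9% ± 5.93 in Sham libraries.

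In the reactions that bring pyruvate into mitochondria, falls and rises were mixed. The PDK kinases inactivate pyruvate dehydrogenase by phosphorylation, and 2 of the 4 fell. Pdk2, the broadly expressed isoform, had 5.78, 2.57, 2.66 and 3.02 CPM in the CLP libraries, against 9.26, 9.11, 8.18 and 11.3 CPM in the Sham libraries. It was lower in every CLP library, with CLP replicate 1 well above the other CLP libraries (log2 change -1.42 ± 0.26, adjusted p = 0.00105 by edgeR). Pdk1, known as a HIF target, had 30.6, 20.3, 18.8 and 15.9 CPM in the CLP libraries, against 30.3, 33.1, 29.8 and 38.1 CPM in the Sham libraries. CLP replicate 1 lay within the Sham range and the groups overlapped (log2 change -0.62 ± 0.19, adjusted p = 0.0175 by edgeR); the call was lost without CLP replicate 3 or without Sham replicate 4. Pdk3 missed the threshold with a positive estimate (15.8 ± 3.99 CPM in CLP and 11.2 ± 2.43 CPM in Sham libraries, log2 change 0.49 ± 0.21, adjusted p = 0.0676 by edgeR), and passed without CLP replicate 4, without Sham replicate 1 and by DESeq2. Pdk4, the isoform induced by fasting, did not pass (2.86 ± 0.448 CPM in CLP and 3.10 ± 0.574 CPM in Sham libraries, log2 change -0.12 ± 0.21, adjusted p = 0.661 by edgeR). Per length Pdk3 held 56.8% ± 4.03 in CLP and 35.0% ± 5.29 in Sham libraries of the kinase sum, and Pdk1 held 25.3% ± 2.46 in CLP and 34.0% ± 3.15 in Sham libraries. Pdk3 therefore led in CLP libraries, whereas in Sham libraries Pdk3 and Pdk1 did not differ beyond their spread. Pdk2 held 10.2% ± 2.702 in CLP and 24.0% ± 1.44 in Sham libraries.

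The complex itself showed a change in 1 of its 3 subunits in the set. Pdhb, the E1 beta subunit, had 47.6, 45.4, 43.5 and 55.1 CPM in the CLP libraries, against 34.8, 35.6, 31.3 and 35.6 CPM in the Sham libraries. It was higher in CLP with no overlap (log2 change 0.48 ± 0.11, adjusted p = 0.00295 by edgeR), but -0.072 under total-count scaling. Pdha1, the E1 alpha subunit that the kinases phosphorylate, did not pass (69.1 ± 10.7 CPM in CLP and 70.4 ± 5.04 CPM in Sham libraries, log2 change -0.027 ± 0.12, adjusted p = 0.863 by edgeR), nor did Dlat, the E2 subunit (33.2 ± 5.05 CPM in CLP and 37.3 ± 1.12 CPM in Sham libraries, log2 change -0.17 ± 0.12, adjusted p = 0.251 by edgeR); Dlat passed as lower without CLP replicate 1. Map3k15 overlaps 16.1% of the exon bases of Pdha1 on the other strand. Outside the set, the E3 subunit Dld was higher in CLP (77.6 ± 7.95 CPM in CLP and 52.3 ± 7.84 CPM in Sham libraries, log2 change 0.57 ± 0.13, adjusted p = 0.00363 by edgeR). Of the 2 phosphatases that reactivate the complex, Pdp2 was lower (8.19 ± 0.293 CPM in CLP and 23.2 ± 4.32 CPM in Sham libraries, log2 change -1.50 ± 0.15, adjusted p = 1.83e-05 by edgeR), and so was Pdpr, their regulatory subunit (18.7 ± 4.54 CPM in CLP and 42.3 ± 2.16 CPM in Sham libraries, log2 change -1.18 ± 0.15, adjusted p = 1.15e-04 by edgeR). The other phosphatase, Pdp1, did not pass (4.57 ± 0.888 CPM in CLP and 5.34 ± 0.525 CPM in Sham libraries, log2 change -0.23 ± 0.19, adjusted p = 0.328 by edgeR), and is named here after its values were seen. Of the 5 such genes tested, 1 was higher and 2 were lower.

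Pyruvate crosses the inner membrane through a carrier built of MPC1 and MPC2. Mpc1 had 9.57, 9.11, 9.39 and 8.29 CPM in the CLP libraries, against 6.23, 6.10, 4.53 and 6.84 CPM in the Sham libraries. It was higher in CLP with no overlap (log2 change 0.62 ± 0.16, adjusted p = 0.00766 by edgeR), and under total-count scaling the estimate of 0.067 did not pass; 4930506C21Rik overlaps 23.1% of its exon bases on the other strand. Mpc2 did not pass (17.1 ± 2.45 CPM in CLP and 20.7 ± 1.51 CPM in Sham libraries, log2 change -0.27 ± 0.13, adjusted p = 0.0912 by edgeR), and passed as lower without CLP replicate 1. The share of Mpc1 in the pair depends on the length used, being 65.3% in CLP and 49.96% in Sham libraries over all exons and 36.3% in CLP and 23.3% in Sham libraries over the longest coding transcripts.

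The oxidative arm of the pentose phosphate pathway, the source of NADPH, showed no call by edgeR, by DESeq2 or at an unadjusted p under 0.05 on the TMM scale. Under total-count scaling all 3 of its genes passed as lower, with log2 changes of -0.34 for G6pdx, -0.88 for Pgls and -0.36 for Pgd. G6pdx, its rate-limiting dehydrogenase, had 194, 177, 168 and 155 CPM in the CLP libraries, against 160.3, 163, 133 and 142 CPM in the Sham libraries. The groups overlapped (log2 change 0.21 ± 0.11, adjusted p = 0.140 by edgeR); Ikbkg overlaps 13.6% of its exon bases on the other strand. Pgls, the lactonase, did not pass (15.1 ± 2.96 CPM in CLP and 18.9 ± 1.498 CPM in Sham libraries, log2 change -0.32 ± 0.15, adjusted p = 0.0856 by edgeR), and passed as lower without CLP replicate 1; Fam129c overlaps 20.6% of its exon bases on the same strand. Pgd, the second dehydrogenase of the arm, did not pass (309.6 ± 47.3 CPM in CLP and 272 ± 15.6 CPM in Sham libraries, log2 change 0.19 ± 0.13, adjusted p = 0.234 by edgeR). Per length the 3 genes summed to 108 ± 8.08 in CLP and 95.8 ± 7.39 in Sham libraries, a ratio of 1.13. In the same pathway outside the set, 0 of 7 genes tested were higher and 3 were lower by edgeR, as by DESeq2 and at an unadjusted p under 0.05. H6pd, the counterpart of G6pdx in the endoplasmic reticulum, was lower in CLP (61.9 ± 10.2 CPM in CLP and 111 ± 10.9 CPM in Sham libraries, log2 change -0.84 ± 0.14, adjusted p = 4.36e-04 by edgeR), as was the phosphoribosyl pyrophosphate synthetase Prps1l3 (9.28 ± 1.22 CPM in CLP and 14.7 ± 1.18 CPM in Sham libraries, log2 change -0.67 ± 0.14, adjusted p = 0.00179 by edgeR). Dera, deoxyribose-phosphate aldolase, did not pass (13.6 ± 2.52 CPM in CLP and 15.2 ± 1.26 CPM in Sham libraries, log2 change -0.16 ± 0.15, adjusted p = 0.376 by edgeR). Shpk, sedoheptulokinase, was the other one lower (1.38 ± 0.422 CPM in CLP and 5.73 ± 0.665 CPM in Sham libraries, log2 change -2.05 ± 0.25, adjusted p = 7.28e-05 by edgeR), and was picked out after its values were seen.

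In the non-oxidative arm 1 of 4 genes was higher and 2 were lower. Taldo1, transaldolase, had 345, 315, 304 and 373 CPM in the CLP libraries, against 248, 248, 199.8 and 223 CPM in the Sham libraries. It was 1.46-fold higher in CLP with no overlap (log2 change 0.54 ± 0.12, adjusted p = 0.00281 by edgeR), but -0.0078 under total-count scaling. Tkt, transketolase, had 317, 260.3, 258 and 245 CPM in the CLP libraries, against 243, 240.2, 206 and 229.8 CPM in the Sham libraries. Its CLP libraries all lay above its Sham libraries, yet the difference did not pass (log2 change 0.23 ± 0.12, adjusted p = 0.114 by edgeR), and it passed by DESeq2. The isomerase and the epimerase of ribulose 5-phosphate fell. Rpia, which makes ribose 5-phosphate, had 7.91, 5.81, 6.83 and 7.41 CPM in the CLP libraries, against 10.3, 10.5, 10.4 and 13.1 CPM in the Sham libraries. All CLP libraries lay below all Sham libraries (log2 change -0.66 ± 0.15, adjusted p = 0.00366 by edgeR). Rpe, the epimerase, had 21.6, 18.9, 23.0 and 20.7 CPM in the CLP libraries, against 26.2, 27.0, 26.3 and 26.4 CPM in the Sham libraries. It was lower in CLP with no overlap (log2 change -0.33 ± 0.10, adjusted p = 0.0168 by edgeR), and the call was lost without CLP replicate 2, Sham replicate 2 or Sham replicate 4; Kansl1l overlaps 17.9% of its exon bases on the other strand. Per length the 4 genes summed to 199 ± 15.1 in CLP and 148 ± 12.8 in Sham libraries, a ratio of 1.35.

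CLP replicate 1 had the smaller changes in much of the set. Of the 26 genes that passed, it was the CLP library nearest to the Sham mean in 16 and the farthest in 3, with distances on log2(CPM + 0.5). The same count was not made over all genes called. On the first principal component over all genes tested, CLP replicate 1 also lay nearest to the Sham libraries. It stood at -45.2, against -82.3, -78.2 and -78.5 for CLP replicates 2 to 4, so its smaller distance was not limited to the set. The summed neutrophil markers of CLP replicate 1 stood at 199 CPM, against 324, 553 and 505 CPM in CLP replicates 2 to 4. A link between these markers and the smaller changes was not tested. Without CLP replicate 1, 19 genes of the set were higher and 10 lower, and the 3 further lower genes were Dlat, Mpc2 and Pgls. Over all 15107 genes then tested, 4235 were higher and 4997 lower, against 3644 and 4319 of 14655 with all libraries.

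**Figure D4:**
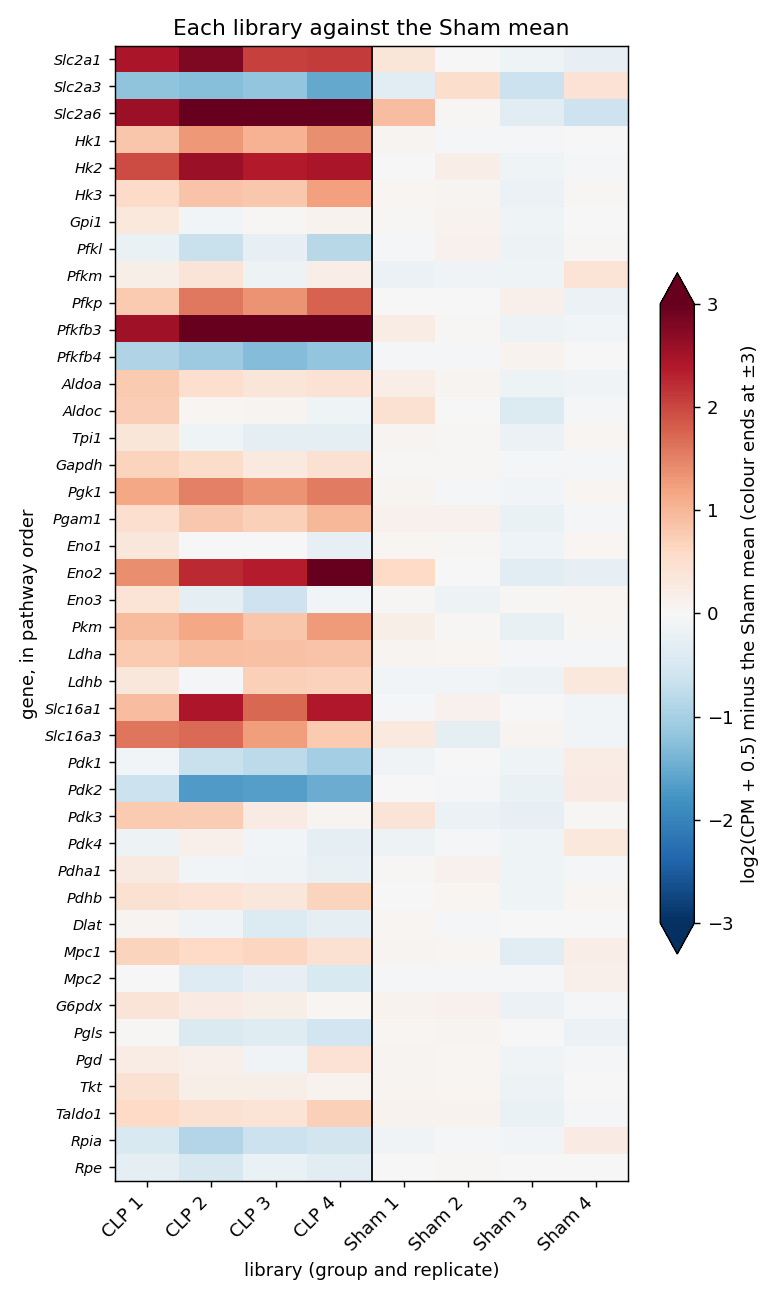
Each library against the Sham mean for the 42 genes in pathway order, as log2(CPM + 0.5) minus the mean of the 4 Sham libraries, with CLP libraries left of the line and Sham libraries right; red is higher, blue is lower, and the colour ends at ±3. The rises of Slc2a1, Slc2a6, Hk2, Pfkfb3 and Slc16a1 are seen in all 4 CLP libraries, and the column of CLP replicate 1 is the paler one for Hk2, Pfkfb3 and Slc16a1.

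In the neighbouring pathways the share of higher genes was smaller than in the stretch from glucose entry to lactate export; the difference between the lists was not tested. Of 30 paralogs and side-branch genes of glycolysis tested, 6 were higher and 8 lower, and the median log2 change was -0.18. The higher ones included Gpd2, the mitochondrial glycerol phosphate dehydrogenase (192 ± 29.0 CPM in CLP and 53.2 ± 15.4 CPM in Sham libraries, log2 change 1.85 ± 0.20, adjusted p = 3.17e-05 by edgeR), and Pgm2, a phosphopentomutase (56.8 ± 5.17 CPM in CLP and 31.7 ± 2.62 CPM in Sham libraries, log2 change 0.84 ± 0.11, adjusted p = 8.77e-05 by edgeR). Pgm2l1, which makes glucose 1,6-bisphosphate, was lower (40.1 ± 8.59 CPM in CLP and 95.6 ± 16.0 CPM in Sham libraries, log2 change -1.25 ± 0.17, adjusted p = 1.39e-04 by edgeR). Of 7 gluconeogenesis genes, 0 were higher and 3 lower by edgeR, as by DESeq2 and at an unadjusted p under 0.05. They were Pck1, the cytosolic phosphoenolpyruvate carboxykinase that is also a hepatocyte marker (94.3 ± 15.1 CPM in CLP and 209 ± 52.5 CPM in Sham libraries, log2 change -1.15 ± 0.18, adjusted p = 4.34e-04 by edgeR), Pck2, its mitochondrial counterpart (4.73 ± 0.995 CPM in CLP and 11.8 ± 1.44 CPM in Sham libraries, log2 change -1.32 ± 0.18, adjusted p = 1.42e-04 by edgeR), and Slc37a4, the glucose 6-phosphate carrier of the endoplasmic reticulum (6.57 ± 0.697 CPM in CLP and 11.0 ± 0.922 CPM in Sham libraries, log2 change -0.74 ± 0.14, adjusted p = 0.00113 by edgeR). Of 17 genes of the tricarboxylic acid cycle, 2 were higher and 2 lower by edgeR, with a median of 0.052, and 6 were higher and 0 lower by DESeq2. Mdh2, malate dehydrogenase (94.7 ± 10.4 CPM in CLP and 66.7 ± 3.62 CPM in Sham libraries, log2 change 0.50 ± 0.10, adjusted p = 0.00211 by edgeR), and Dlst, the E2 subunit of oxoglutarate dehydrogenase (169.8 ± 13.3 CPM in CLP and 130.4 ± 5.14 CPM in Sham libraries, log2 change 0.38 ± 0.099, adjusted p = 0.00752 by edgeR), were higher. Idh3a, a subunit of isocitrate dehydrogenase, was lower (30.9 ± 11.5 CPM in CLP and 46.7 ± 7.82 CPM in Sham libraries, log2 change -0.59 ± 0.23, adjusted p = 0.0478 by edgeR).

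Genes known to control glycolytic transcription were also measured. Of 10 HIF pathway regulators tested, 4 were higher and 4 lower (40% each). Hif1a, the oxygen-sensitive subunit, was higher in CLP (206 ± 15.1 CPM in CLP and 102 ± 17.2 CPM in Sham libraries, log2 change 1.01 ± 0.13, adjusted p = 1.17e-04 by edgeR), as were its partner Arnt (243 ± 30.4 CPM in CLP and 131 ± 8.37 CPM in Sham libraries, log2 change 0.89 ± 0.12, adjusted p = 1.17e-04 by edgeR) and Egln2, a prolyl hydroxylase that marks HIF for decay (189.6 ± 8.29 CPM in CLP and 68.5 ± 13.8 CPM in Sham libraries, log2 change 1.47 ± 0.14, adjusted p = 1.90e-05 by edgeR). The 4 lower ones were picked out after their values were seen. They were Egln1, the main prolyl hydroxylase of HIF and a paralog of Egln2 (18.3 ± 5.63 CPM in CLP and 34.3 ± 3.89 CPM in Sham libraries, log2 change -0.90 ± 0.19, adjusted p = 0.00224 by edgeR), Hif1an, an asparagine hydroxylase that limits HIF activity (34.9 ± 2.08 CPM in CLP and 41.5 ± 1.43 CPM in Sham libraries, log2 change -0.25 ± 0.091, adjusted p = 0.0373 by edgeR), Hif3a (0.436 ± 0.166 CPM in CLP and 7.34 ± 2.94 CPM in Sham libraries, log2 change -4.07 ± 0.39, adjusted p = 1.69e-05 by edgeR) and Vhl, the ubiquitin ligase subunit that removes HIF (5.60 ± 0.997 CPM in CLP and 12.6 ± 0.911 CPM in Sham libraries, log2 change -1.17 ± 0.16, adjusted p = 1.34e-04 by edgeR). Of 20 glucose-sensing and other regulators, 5 were higher and 5 lower (25% each). These shares were near those over all genes tested, 24.9% higher and 29.5% lower. Txnip, a glucose-induced arrestin that limits glucose uptake, was lower in CLP (147 ± 36.3 CPM in CLP and 619 ± 90.6 CPM in Sham libraries, log2 change -2.08 ± 0.19, adjusted p = 1.29e-05 by edgeR). Its paralog Arrdc4 was higher (59.8 ± 14.2 CPM in CLP and 26.7 ± 4.56 CPM in Sham libraries, log2 change 1.16 ± 0.19, adjusted p = 4.54e-04 by edgeR), and so was Irs2, an adaptor of the insulin receptor (299 ± 100.04 CPM in CLP and 42.7 ± 2.87 CPM in Sham libraries, log2 change 2.81 ± 0.22, adjusted p = 6.10e-06 by edgeR).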

How the data were processed

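RNA of sorted Kupffer cells was made into 8 libraries with a stranded TruSeq kit and sequenced on an Element AVITI, per the labels' protocols. The deposited values are whole read counts per Ensembl gene. FastQC, STAR 2.7.10b, featureCounts, DESeq2 and the assembly mm39 were used, per the submitters' processing notes; for the strand setting and annotation release of the count, the sources used here give nothing.

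Symbols came from GENCODE M21 (GRCm38) for 52133 of 55414 IDs, holding 99.8% of the counts, as did exon lengths and overlaps between genes. Near-identical copies were found with blastn 2.17.0 (at least 95% identity over 500 bases). Counts were filtered with filterByExpr, TMM-scaled and tested with edgeR 4.0.16 (robust quasi-likelihood F-test, R 4.3.3), with surgery as the only term and Benjamini-Hochberg adjustment over 14655 genes at 0.05. SEs are approximate, the absolute log2 change divided by the root of F. All replicate pairs differed beyond counting noise (chi-square per degree of freedom at least 20.1). All genes of the set are named; from the other lists, the 3 with the smallest p among those with at least 10 CPM in the higher group, plus genes marked as picked afterwards. The set and the lists were chosen with earlier results of these data known. Alternatives used DESeq2 1.42.0, limma 3.58.1 voom, total-count scaling, no filter, a replicate block, a GC correction and single libraries left out.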

Additional observations from a re-analysis of the deposited data

Results flagged for a closer look

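Within each group of 4, the highest or lowest library was checked for a gap to its nearest neighbour that was large against the whole range. Of 84 such groups, 2 for each of the 42 genes, 6 held such a library, and chance gives about 5%. Pfkm, the muscle phosphofructokinase, stood at 8.59 CPM in Sham replicate 4, against 5.59 to 5.88 CPM in the other Sham libraries. In the same library Ldhb stood at 0.611 CPM, against 0.302 to 0.336 CPM, at low counts, and Rpia, the ribose 5-phosphate isomerase, at 13.1 CPM, against 10.3 to 10.5 CPM. Eno1 was at 115 CPM in Sham replicate 3, below 127 to 129 CPM in the others. Eno3 was at 4.72 CPM in Sham replicate 2, below 5.47 to 5.59 CPM. Among CLP libraries, Pdk2 was at 5.78 CPM in replicate 1, above 2.57 to 3.02 CPM in replicates 2 to 4, and still below all Sham libraries.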

How the results depend on the processing

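Depth limits Eno2 and Ldhb, both under 1 CPM in Sham libraries. Over 14 alternatives for 42 genes, 531 of 588 fold changes kept direction and side of the threshold, 13 lost a call, 17 gained one and 27 reversed. Total-count scaling gave 1715 genes higher, 8292 lower and 19 genes of the set lower. It sets to 1 the TMM factors, which were 0.801 to 0.837 in CLP and 1.16 to 1.28 in Sham libraries. Reversed there were Aldoa (-0.022), Gapdh (-0.053), Pdhb (-0.072) and Taldo1 (-0.0078), which had passed, and Gpi1 (-0.46), Pfkm (-0.41), Aldoc (-0.31), Eno1 (-0.52), Pdk3 (-0.059), G6pdx (-0.34), Pgd (-0.36) and Tkt (-0.32), which had not. The genes newly lower there were Gpi1, Tpi1, Eno1, Eno3, Pdk4, Pdha1, Dlat, Mpc2, G6pdx, Pgls, Pgd and Tkt. The log2 ratios of summed markers reversed likewise for Kupffer cells (-0.29), monocytes (-0.22), hepatocytes (-0.28), sinusoidal endothelial cells (-0.53) and stellate cells (-0.13).

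Genes near 0 that had not passed also changed sign elsewhere. Tpi1 was 0.011 by DESeq2 and 0.027 with the GC correction, Pdha1 0.033 by DESeq2, and Eno1 -0.023 without the filter. With single libraries left out the estimates ran for Aldoc from -0.032 to 0.466, Tpi1 from -0.221 to 0.024, Eno1 from -0.087 to 0.122, Eno3 from -0.348 to 0.060, Pdk4 from -0.214 to 0.029, Pdha1 from -0.140 to 0.038, and the sinusoidal endothelial ratio from -0.032 to 0.058. Genes of the set lower in CLP numbered 4 to 10 with single libraries left out. Pfkl and Rpe lost their calls with the GC correction. The cause of these changes was not tested.

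Same-numbered libraries deviated with correlations of 0.17, -0.12, 0.13, -0.09 for numbers 1 to 4, so the numbers were not taken to pair samples. No CLP library correlated best with the Sham library of its own number. With a replicate block 3491 genes were higher and 4303 lower, and 20 and 7 in the set, the further one being Pdk3.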
